A study of Mus musculus with 71 samples.

Results

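Grik4, Rgcc, Hal and Chrnd were the 4 genes with the largest excess of RNA, after Tex13b, in mouse embryonic stem cells (mESCs) in which the H1c, H1d and H1e genes of linker histone H1 were knocked out. They were chosen from poly(A) RNA-seq by their rank in the difference between H1-TKO (triple knockout) and WT libraries, ranks 2 to 5 among 11113 RefSeq accessions tested, out of 34010 in the tables. Because this contrast picked the genes, their differences are given as a description and carry no p-value. What the choice did not use was examined afterwards: the genes on either side, the families they belong to, their promoter sequence and the H3K27me3 peaks around them.

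Both genotypes were of the R1 mESC line and, per the methods of the study, were grown with LIF. The knockout was made with CRISPR/Cas9 and a guide shared by H1c, H1d and H1e. Whether the H1-TKO libraries came from 1 clone is not given in the sources used here, so an effect of the knockout and a property of a clone cannot be told apart. RNA-seq had 2 libraries per genotype, of 6951619 to 10538507 counted reads each, and H3K27me3 ChIP-seq had 1 peak list per genotype. The culture note attached to the RNA-seq samples describes HeLa cells, whereas their cell type label reads mouse embryonic stem cells, and the stem cell factor Pou5f1 ran from 2586 to 5110 normalized counts over the 4 libraries. The sample labels also give the genotypes of all 4 RNA-seq libraries the other way round from the names inside the tables. The names of the tables are used here, since each library equalled the column of the same name in the source table of the study in 100% of the 1999 rows read, with 18633 rows not read. Under the sample labels every RNA direction given below would be reversed. The knocked-out genes do not settle this. In normalized counts H1f2 (H1c) stood at 11.6 and 56.7 in the libraries named WT, against 18.7 and 7.37 in those named H1-TKO. H1f3 (H1d) had 3.88 and 41.4 against 1.10 and 0, and H1f4 (H1e) 5.43 and 19.6 against 0 and 2.11. The untargeted H1f5 had a like pattern, with 6.21 and 44.7 against 0 and 2.11, while the more abundant and also untargeted H1f0 and H1f10 were higher in both libraries named H1-TKO. H1f0 stood at 571 and 464 against 1944 and 2118, and H1f10 at 140.4 and 134 against 453 and 401. On chromosome Y all 5 accessions tested were lower in the libraries named H1-TKO, with a median log2 difference of −5.61. What this says about the naming was not tested.

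Linker histone H1 binds the nucleosome where DNA enters and leaves it and helps to fold nucleosome arrays into compact chromatin. H3K27me3 is the mark that the Polycomb complex PRC2 places on silent genes, and in embryonic stem cells it often covers CpG-rich promoters of developmental genes. The 4 genes belong to unlike pathways and are best known from differentiated tissues. Grik4 encodes a kainate-type glutamate receptor subunit of neurons, and Chrnd the delta subunit of the nicotinic acetylcholine receptor of the neuromuscular junction. Hal encodes histidine ammonia-lyase, the enzyme of liver and skin that turns histidine into urocanate, and Rgcc a regulator of the cell cycle that binds the kinase Cdk1.

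The promoters differed in base composition. RefSeq gives 250 bases before the start of Grik4, Hal and Rgcc (from GRCm38.p6), each of which had 1 exact match on its chromosome in NCBIM37, the build of the files (mm9). Chrnd had no entry. They are shown with CG dinucleotides in capitals, 5′ to 3′ on the strand of the gene, because the CG content set the Grik4 and Rgcc promoters apart from that of Hal. For Grik4 only the 128 bases before the GENCODE start are shown, chr9:42752577-42752704 on the minus strand. Hal is chr10:92951263-92951512 on the plus strand, and Rgcc is chr14:79701443-79701692 on the minus strand.
Grik4: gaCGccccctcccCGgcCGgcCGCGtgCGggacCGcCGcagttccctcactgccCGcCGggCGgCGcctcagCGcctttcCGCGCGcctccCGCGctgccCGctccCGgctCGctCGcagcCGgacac
Hal: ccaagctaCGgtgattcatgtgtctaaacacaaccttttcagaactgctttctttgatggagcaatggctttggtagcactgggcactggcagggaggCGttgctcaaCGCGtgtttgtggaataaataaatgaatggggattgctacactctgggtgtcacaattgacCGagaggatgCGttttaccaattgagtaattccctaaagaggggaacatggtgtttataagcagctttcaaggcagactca
Rgcc: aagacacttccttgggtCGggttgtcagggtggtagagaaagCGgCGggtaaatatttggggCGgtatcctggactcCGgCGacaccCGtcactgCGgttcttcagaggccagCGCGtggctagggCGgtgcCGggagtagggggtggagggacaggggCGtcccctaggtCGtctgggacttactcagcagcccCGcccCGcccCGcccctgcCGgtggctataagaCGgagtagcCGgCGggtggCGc

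Over its 250 bases the Grik4 promoter held 36 CG, with a GC content of 69.6% and a ratio of observed to expected CG of 1.21. It held more CG than 97.4% of the 32851 RefSeq promoters, whose median was 6. Rgcc had 22 CG, a GC content of 66.8% and a ratio of 0.813, above 85.2% of promoters in the number of CG. Hal had 6 CG, the median number, and a GC content of 45.6% against a median of 52.4%. Grik4 and Rgcc therefore had CpG-rich promoters and Hal did not. The letters GGGCGG, the core of the GC box that Sp1 binds, were searched on both strands. They began 192 bases before the RefSeq start in Grik4, inside the stretch shown, were found 5 times in Rgcc with 2 neighbouring pairs of matches on the minus strand sharing letters, and were not found in Hal, against 32.7% of all promoters with at least 1 match. The exact letters TATAAA, a form of the TATA box, occurred in Hal on the minus strand, 28 bases before the start, and not in Grik4 or Rgcc, against 12.4% of promoters. Variants were not searched, and the letters tataag stand in both the Hal and the Rgcc sequence shown. The E-box letters CAGCTG and CACGTG, found in 13.0% and 6.02% of promoters, were in none of the 3.

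Grik4 (NM_175481) lies on the minus strand at chr9:42326218-42752576, where GENCODE also annotates 9530085L02Rik on the same strand. In normalized counts it stood at 10.1 and 0 in WT replicates 1 and 2, and at 98.1 and 82.2 in H1-TKO replicates 1 and 2. Behind these values were 13 and 0 reads in WT and 89 and 78 reads in H1-TKO. Both H1-TKO libraries were above both WT libraries, and the WT replicates were far apart. The difference was 4.77 on the log2(normalized count + 1) scale (standard error 1.06, n = 2 and 2), and on this scale the change of a low gene depends on the pseudocount: it was 5.29 with 0.5 and 3.45 with 5. From the summed reads, scaled by the size factors, the ratio of H1-TKO to WT was 15.3 (95% interval 8.68 to 29.3), where the interval covers counting error only. Without WT replicate 2, the library with 0 reads, the log2 difference was 3.03 and the rank of Grik4 fell to 59, and without WT replicate 1 the difference was 6.50. A count of 0 in WT replicate 2 allows up to 3 reads, or 3.27 normalized counts.

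Chrnd (NM_021600), at chr1:89087227-89096644 on the plus strand, was the other gene with 0 reads in WT replicate 2. Its WT libraries stood at 3.88 and 0 normalized counts and its H1-TKO libraries at 35.3 and 44.2, from 5, 0, 32 and 42 reads. The groups did not overlap, and its values rested on the fewest reads of the 4 genes in either genotype. The log2 difference was 4.20 (standard error 0.92, n = 2 and 2), and the ratio from the reads was 17.6 (95% counting interval 7.20 to 55.7). Leaving out WT replicate 2 gave 3.05, which put Chrnd at rank 56, and leaving out WT replicate 1 gave 5.34. Chrnd lies on chromosome 1, where the 617 accessions tested were shifted upward in H1-TKO by a median of 0.52 relative to all accessions, and 30.1% of them were higher at an adjusted p under 0.05 (limma, Benjamini-Hochberg). Less the median of chromosome 1 itself (0.50), the difference of Chrnd was 3.70. Other chromosomes were shifted downward. Chromosomes 11 and 8 had medians of −0.35 and −0.22 relative to all accessions, with 20.8% and 18.4% of their accessions called lower. The part of chromosome 1 in the level of Chrnd was not tested.

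Rgcc (NM_025427, named 1190002H23Rik in GENCODE M1) lies on the minus strand at chr14:79688558-79701442. It was the most steady of the 4 genes, at 6.98 and 9.82 normalized counts in the WT libraries against 242 and 244 in the H1-TKO libraries, from 9 and 9 reads and 220 and 232 reads. Its H1-TKO replicates were 0.01 apart on the log2 scale and its WT replicates 0.44. The log2 difference was 4.72 (standard error 0.38, n = 2 and 2) and the ratio from the reads 29.8 (95% counting interval 18.7 to 50.8), the highest of the 4. With 1 library left out at a time the difference lay between 4.50 and 4.94.

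Hal (NM_010401) lies on the plus strand at chr10:92951513-92982049. The WT libraries held 2.33 and 7.64 normalized counts of it, the H1-TKO libraries 100.3 and 108, from 3, 7, 91 and 103 reads. Here WT replicate 2 was the higher of the WT libraries, the opposite of Grik4 and Chrnd. The log2 difference was 4.30 (standard error 0.60, n = 2 and 2) and the ratio from the reads 23.0 (95% counting interval 12.3 to 48.8). Leaving out WT replicate 1 gave 3.61, which put Hal at rank 33, and leaving out WT replicate 2 gave 4.98.

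**Figure D1:**
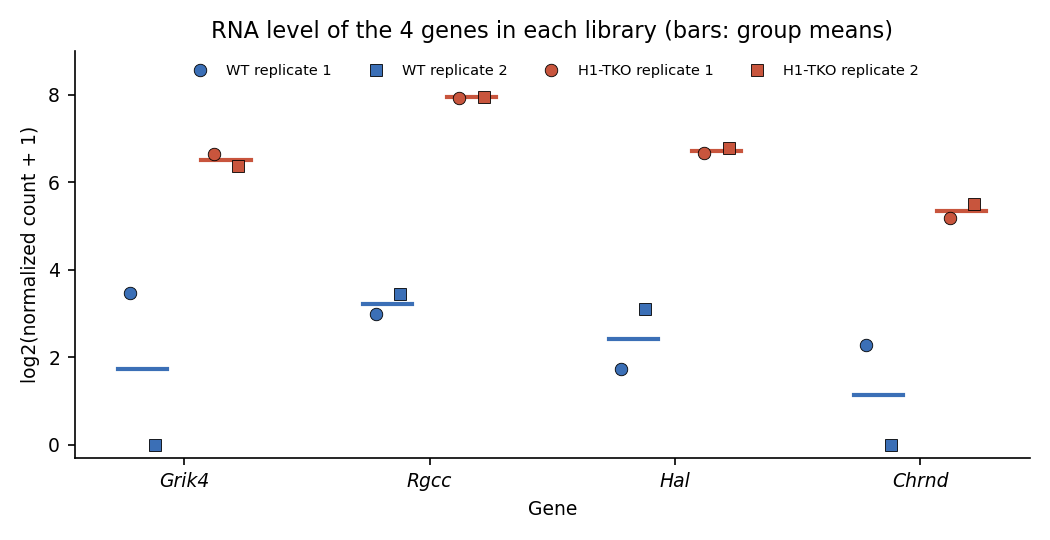
Level of each gene in each library, as log2(normalized count + 1) on the vertical axis, with circles for replicate 1, squares for replicate 2, blue for WT, red for H1-TKO and a bar for each group mean. The H1-TKO points of a gene lie close together and above both WT points, while the WT points of Grik4 and Chrnd spread from 0 upward.

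The absence of overlap between the groups is part of what chose the 4 genes. Both H1-TKO libraries were above both WT libraries in 32.2% of all accessions tested. A log2 difference of at least 4 was met by 8 of 11113 accessions (0.072%), the 4 genes among them. Just above the 4 genes was Tex13b, with 5.83, and just below them were Baat, a bile acid conjugating enzyme, with 4.19 and Otog, a protein of the inner ear matrices, with 4.16. The step from Chrnd to Baat was thus far smaller than the standard error of either. With edgeR on the recovered reads Rgcc ranked 4, Hal 6, Chrnd 12 and Grik4 16, and with DESeq2 the ranks were 4, 6, 12 and 14. With a pseudocount of 5 in place of 1, the log2 differences of Grik4 and Chrnd were 3.45 and 2.74. The order within the 4 genes therefore changed with the setting, and without WT replicate 2 Hal, at 4.98, was above Rgcc, at 4.94.

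**Figure D2:**
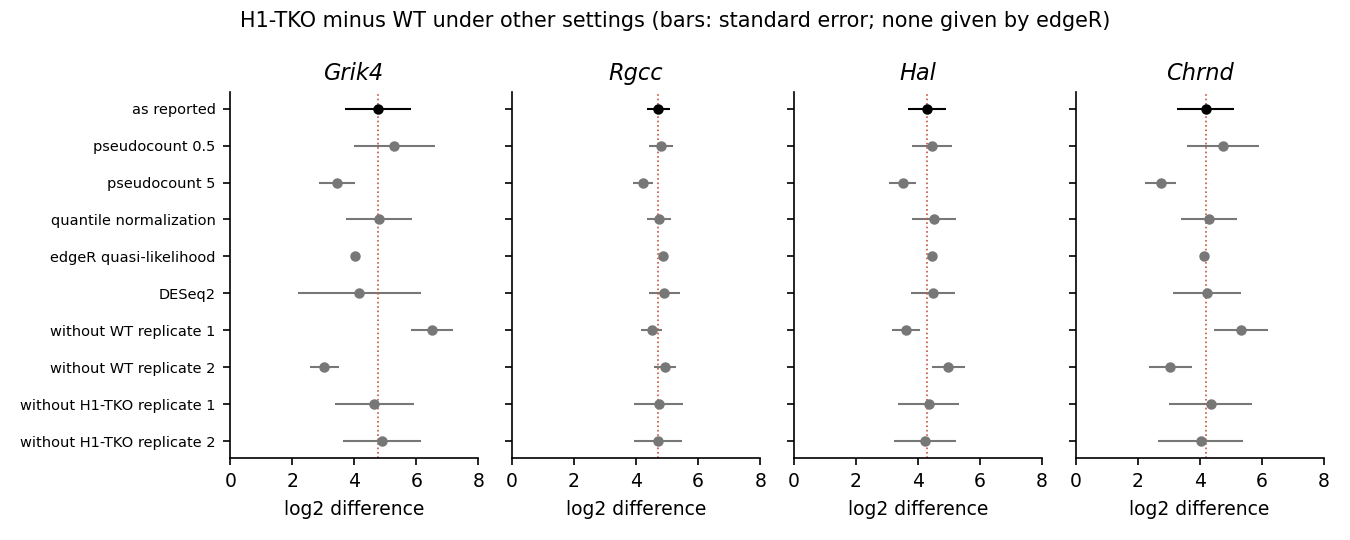
Log2 difference between H1-TKO and WT for each gene under the reported setting (black) and 9 others (grey), with bars for the standard error, which edgeR does not give, and a dotted line at the reported value. Rgcc runs from 4.22 to 4.94 over these settings, while Grik4 runs from 3.03 to 6.50 with 1 WT library left out.

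Compared between genes, levels were taken per kb of annotated exon. In H1-TKO, Rgcc stood at 267 normalized counts per kb, Hal at 18.8, Grik4 at 15.2 and Chrnd at 13.1. Hal was above Grik4 and Chrnd in both libraries, whereas Grik4, with 16.6 and 13.9, and Chrnd, with 11.6 and 14.6, overlapped. In WT the levels were 9.20 for Rgcc, 0.898 for Hal, 0.853 for Grik4 and 0.638 for Chrnd, and the last 3 did not differ beyond the spread of their libraries. RNA-seq of bulk cells does not tell more cells with the transcript from more transcript per cell.

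Profiles of log2(normalized count + 1) over the 4 libraries, centred on their mean, were then compared. These are the values that chose the genes, so the distances are a description only. They separated Grik4 and Chrnd, with 0 reads in WT replicate 2, from Rgcc and Hal. The distance between Rgcc and Hal was 0.788 and that between Grik4 and Chrnd 1.09, while the other 4 pairs were 2.01 to 3.47 apart. Outside the 4 genes, the profile nearest to Chrnd was that of Asb10 (distance 0.338), followed by Fas (0.911) and A330048O09Rik (0.925). Cda (1.09), Fas (1.29) and Asb10 (1.29) were nearest to Grik4. For Rgcc they were Tmem132c (0.744), Mag (0.890) and Pou4f3 (0.961), and for Hal they were Alppl2 (0.473), Sparcl1 (0.571) and Tmem132c (0.597). All the profiles near Grik4 and Chrnd had 0 in WT replicate 2, as both genes did.

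The genes around the 4 were asked whether they changed too, a measure that the choice had not used. Within 200 kb lay 33 genes with 42 accessions in the tables, of which 20 accessions reached the minimum mean of 10 normalized counts and were tested. At an adjusted p under 0.05 (limma, Benjamini-Hochberg over all accessions), 11 (55% of the 20) passed, 9 with more and 2 with less RNA in H1-TKO. Among the 9, Alppl2 and Gm15915 reached the minimum mean only through their H1-TKO libraries, so a test could only call them higher. Among all 11113 accessions 20.5% were called, 9.84% higher and 10.7% lower. The count and the background both moved with single libraries. It was 3 without H1-TKO replicate 1 and 2 without H1-TKO replicate 2, where 5.43% and 5.26% of all accessions were called, and 14 and 13 without WT replicate 1 and 2, where 49.2% and 44.5% were. Without the neighbours of Chrnd, on the shifted chromosome 1, 7 of 15 were called, 6 of them higher.

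Around Rgcc, Naa16, which encodes an auxiliary subunit of an N-terminal acetyltransferase, lay 32.6 kb upstream. It moved from 717 and 570 normalized counts to 1625 and 1451, a log2 difference of 1.26 (standard error 0.16, adjusted p = 0.00501 from limma with Benjamini-Hochberg adjustment). Naa16 was higher in both libraries and was called under each of 13 alternatives, the only neighbour of which this held. Kbtbd6, a BTB-kelch protein gene 150 kb upstream, fell, from 56.6 and 79.6 to 24.2 and 11.6 (log2 difference −1.94, standard error 0.50, adjusted p = 0.0356, limma). Without H1-TKO replicate 2 Kbtbd6 stood at −1.43 and lost the call (adjusted p = 0.217, limma), as it did at a minimum mean of 1 (0.0655). Its near copy Kbtbd7 stood at −0.05, and reads shared by both could have been lost, since only unique reads were counted. Vwa8 was at 0.06, Mtrf1, a mitochondrial release factor, at −0.53 and Wbp4, a splicing factor, at 0.46, none past the threshold (limma adjusted p = 0.0798 to 0.908). Zfp957 and Elf1 were under the filter.

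Around Grik4, the nearest gene downstream was called and the nearest upstream was not, though both differences were positive. They were not tested against each other. Tbcel, a tubulin cofactor-like gene 10.3 kb downstream, rose from 486 and 387 normalized counts to 965 and 840, by 1.05 on the log2 scale (standard error 0.18, adjusted p = 0.0103, limma). Arhgef12, 19.3 kb upstream, had 1144 and 986 in WT and 1273 and 1275 in H1-TKO, a difference of 0.26 that did not pass the threshold (adjusted p = 0.213, limma). Pou2f3, a POU-domain transcription factor 179 kb upstream, rose from 38.8 and 69.8 to 201 and 243 (log2 difference 2.06, standard error 0.35, adjusted p = 0.0101, limma). Tlcd5 stood at 0.09 and Tecta was under the filter. Tbcel lost its call without H1-TKO replicate 1 and Pou2f3 without H1-TKO replicate 2 (adjusted p = 0.0975 and 0.0542, limma).

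Around Hal, Lta4h, which encodes leukotriene A4 hydrolase, ended 3.87 kb upstream. It rose from 945 and 963 normalized counts to 1346 and 1360, by 0.50 on the log2 scale (standard error 0.13, adjusted p = 0.0347, limma), a far smaller step than that of Hal. On the other side, 4.03 kb downstream, lay Amdhd1, which encodes an enzyme of the same histidine pathway. It was under the filter, at 0 and 6.54 in WT against 1.10 and 6.32 in H1-TKO. Farther out, the noncoding Gm15915 rose by 3.10 (standard error 0.72, adjusted p = 0.0253, limma), from 1.55 and 4.36 to 29.7 and 31.6. Gm15915 reached the minimum mean of 10 only through the H1-TKO libraries, which favours the call of a rise. The ETS factor gene Elk3 rose by 1.09 (standard error 0.27, adjusted p = 0.0297, limma). Ccdc38 stood at 1.33 and Snrpf, which encodes an Sm protein of the spliceosome, at −0.82, neither past the threshold (adjusted p = 0.103 and 0.0832, limma). Lta4h, Gm15915 and Elk3 each lost the call when either H1-TKO library was left out, and Lta4h and Elk3 also at a minimum mean of 1.

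Around Chrnd, the gamma subunit gene Chrng, 5.74 kb downstream, was under the filter, with 0.776 and 1.09 in WT and 0 and 4.21 in H1-TKO. Eif4e2, a cap-binding protein gene 13.8 kb downstream, gave 2 accessions that moved in opposite directions, at 0.80 (standard error 0.18, adjusted p = 0.0230, limma) and −0.90 (standard error 0.25, adjusted p = 0.0446, limma). Efhd1, an EF-hand protein gene 64.3 kb downstream, rose from 30.3 and 36.0 to 123 and 140.1 (log2 difference 1.96, standard error 0.32, adjusted p = 0.00973, limma). Alppl2, an alkaline phosphatase gene 101 kb upstream, rose from 0.776 and 3.27 to 44.1 and 36.9, by 3.91 (standard error 0.74, adjusted p = 0.0141, limma). Alppl2 reached the minimum mean only through its H1-TKO libraries, which favours the call of a rise. Its relatives Akp3 and Alpi, between it and Chrnd, were under the filter, and reads common to these copies could have been lost. Kcnj13, a potassium channel gene, stood at 1.08 (adjusted p = 0.211, limma). Efhd1, Alppl2 and both accessions of Eif4e2 lost the call when either H1-TKO library was left out. The lower Eif4e2 accession (NM_001039169) also lost it with DESeq2 (adjusted p = 0.0623), with quantile normalization (0.0531) and at a minimum mean of 1 (0.0688).

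**Figure D3:**
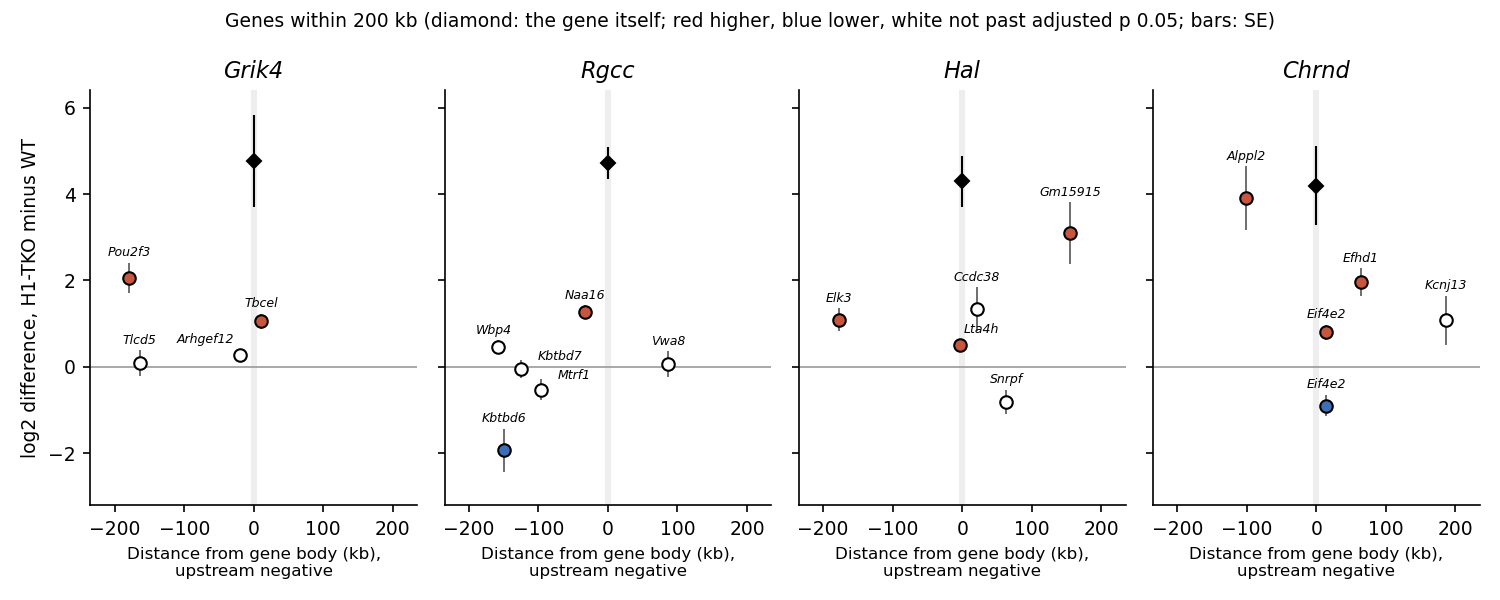
Log2 difference between H1-TKO and WT of the genes tested within 200 kb, against the distance from the body of each of the 4 genes in kb, upstream to the left, with the gene itself as a diamond at 0 and bars for the standard error. Red points were higher, blue points lower and white points not past an adjusted p of 0.05, and apart from Alppl2 and Gm15915 all neighbours stay far under the diamonds.

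H3K27me3 was then examined around the 4 genes, with peaks counted in the gene body or within 10 kb of it. Each list is 1 replicate, so that differences between them have no replicate check. Rgcc and Chrnd had a peak in both lists, and Grik4 and Hal in neither. Over the 22032 genes placed, 21.7% had a peak in the WT list and 20.0% in the H1-TKO list, and 2 of 4 genes are too few to be set against these shares.

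At Rgcc the peak lay within the gene, just after its start. The WT peak, chr14:79700667-79701042, was 376 bp wide with a MACS score of 111, where the score is −10 times the log10 of the p-value of the peak. It covered 335 bp of intron 1 and 41 bp of exon 2, which is coding. The H1-TKO peak, chr14:79700385-79701296, was 912 bp wide with a score of 193 and reached from intron 2 across exon 2 and intron 1 into exon 1. With the RNA-seq libraries named as in the tables, the genotype with more Rgcc RNA thus also had the wider peak with the higher score. The score is a p-value and not a measured level of H3K27me3. The study reported less H3K27me3 in H1-TKO by western blot, ChIP-qPCR of chosen genes and ChIP-seq scaled to a fly reference. The ratio of scores was 1.73 and that of widths 2.43, above 87.6% and 94.4% of the 3851 WT peaks that an H1-TKO peak overlapped, whose median score ratio was 0.958. Its promoter sequence shown above was outside the peak in both lists.

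At Chrnd the peak lay upstream, not in the gene. It was at chr1:89082540-89083286 in WT (747 bp, score 98.6) and at chr1:89082400-89083108 in H1-TKO (709 bp, score 111), 3.94 and 4.12 kb before the gene. The WT peak reached into the start of Prss56 and the H1-TKO peak ended just before it. Prss56, a serine protease gene, stood at 7.76 and 4.36 normalized counts in WT, against 15.4 and 7.37 in H1-TKO. The ratio of scores was 1.13, near the median of 1.10 of shared peaks on chromosome 1, where 59.8% of shared peaks scored higher in H1-TKO against 45.8% over all chromosomes. The middle 300 bases shared by the peaks of both lists are shown for Rgcc, chr14:79700704-79701003 on the minus strand, and Chrnd, chr1:89082674-89082973 on the plus strand, read from NCBIM37 with CG in capitals.
Rgcc peak: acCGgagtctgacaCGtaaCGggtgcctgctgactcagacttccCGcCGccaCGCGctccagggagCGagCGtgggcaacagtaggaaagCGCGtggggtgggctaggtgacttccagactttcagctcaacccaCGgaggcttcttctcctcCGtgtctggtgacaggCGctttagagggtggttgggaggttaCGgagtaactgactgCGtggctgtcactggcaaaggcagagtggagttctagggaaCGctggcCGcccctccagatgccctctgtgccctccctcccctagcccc
Chrnd peak: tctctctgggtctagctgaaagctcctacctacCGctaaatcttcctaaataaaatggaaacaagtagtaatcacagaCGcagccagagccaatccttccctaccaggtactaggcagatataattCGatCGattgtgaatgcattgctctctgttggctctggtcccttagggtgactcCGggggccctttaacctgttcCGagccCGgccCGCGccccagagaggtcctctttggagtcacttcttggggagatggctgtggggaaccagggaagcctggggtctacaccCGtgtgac
The Rgcc stretch held 18 CG and had a GC content of 62.7%, and the Chrnd stretch 10 CG and 53.7%.

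Grik4 and Hal had no listed peak within 10 kb. The nearest peak to Grik4 was 294 kb away in both lists, with scores of 67.3 in WT and 155 in H1-TKO, so that its CpG-rich promoter was without a listed peak in either genotype. Near Hal, a WT peak of score 61.4 lay 15.2 kb past the gene, within Amdhd1, and the nearest H1-TKO peak was 121 kb away. Within 25 kb, 3 of the 4 genes therefore had a WT peak and 2 an H1-TKO peak, where 29.4% and 27.1% of all genes placed had one. Among the 33 neighbouring genes, 9 had a peak within 10 kb in WT and 10 in H1-TKO, beside 21.7% and 20.0% of all genes, and none of these lay by Grik4. Neighbours share some of these peaks, as Kbtbd6 and Wbp4 do, and that of Prss56 is the peak of Chrnd. Of the called neighbours, Efhd1 had 2 peaks in each list, with top scores of 66.9 in WT and 102 in H1-TKO, and Kbtbd6 had 1 in H1-TKO (score 144) and 0 in WT. The lists hold peaks above a limit only, so a gene without one may still carry signal.

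The other genes of the pathways were tested to see whether they moved with the 4. In 4 lists with 69 genes, 36 accessions were tested. In H1-TKO 4 were called higher and 3 lower (limma, adjusted p under 0.05), or 7 of 36, next to 20.5% of all accessions. This count was 0 without H1-TKO replicate 1, with 4 accessions at an unadjusted p under 0.05, and 1 without H1-TKO replicate 2, beside the 5.43% and 5.26% given above. It was 19 and 16 (52.8% and 44.4%) without WT replicate 1 and 2, near the 49.2% and 44.5% of all accessions. With the replicate number as a block it was 11 (30.6%), next to 29.7%.

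Of the ionotropic glutamate receptor genes, which encode the family of Grik4, 7 of 19 were tested, with a median log2 difference of 0.01. Grik3, a kainate subunit with which the Grik4 protein can assemble, had the highest mean, at 978 and 692 normalized counts in WT against 518 and 545 in H1-TKO (log2 difference −0.63, adjusted p = 0.0600, limma), and was called lower by DESeq2 (adjusted p = 0.0380). Grik5, the closest relative of Grik4, stood at 263 and 190 against 219 and 232, a difference of 0.01. Neto2, an auxiliary subunit of kainate receptors, fell from 82.2 and 168 to 24.2 and 31.6 (log2 difference −2.05, standard error 0.44, adjusted p = 0.0199, limma), and lost the call without H1-TKO replicate 1 (adjusted p = 0.0710, limma). Both accessions of the kainate subunit Grik2 were listed at 0 in all libraries. This cannot be taken as absence of RNA, since Nanog, a core stem cell gene with 4 accessions, was also at 0 in each.

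Among nicotinic receptor and neuromuscular junction genes, the family of Chrnd, 12 accessions were tested with a median of 0.41. Chrnb4, a neuronal beta subunit, rose from 51.2 and 41.4 to 132 and 115 (log2 difference 1.40, standard error 0.31, adjusted p = 0.0230, limma). Chrnb4 lost the call when either H1-TKO library was left out (adjusted p = 0.223 and 0.148, limma). Chrna7, a neuronal alpha subunit, fell by 1.33 (standard error 0.37, adjusted p = 0.0451, limma), and Agrn, which encodes the organiser agrin, by 0.46 (standard error 0.13, adjusted p = 0.0499, limma). Both lower calls were lost with edgeR (adjusted p = 0.0531 for Chrna7 and 0.0573 for Agrn), and that of Agrn also with DESeq2 (0.0527). The partners of Chrnd in the muscle receptor did not pass: Chrna1 stood at 17.1 and 15.3 in WT against 39.7 and 11.6 in H1-TKO, and Chrnb1 87.7 and 36.0 against 48.5 and 26.3. Lrp4, the agrin receptor, had the second highest mean, at 186 and 90.5 against 234 and 252 (log2 difference 0.90, adjusted p = 0.106, limma).

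Of the histidine metabolism genes, 4 were tested and 0 were called with limma, edgeR or DESeq2, with 1 at an unadjusted p under 0.05 in limma. Uroc1, the enzyme that follows Hal, was under the filter at 0.776 and 6.54 in WT against 13.2 and 5.27 in H1-TKO. Hars, the histidyl-tRNA synthetase, had 1421 and 1528 against 1183 and 1149 (log2 difference −0.34, adjusted p = 0.103, limma), and Hars2, its mitochondrial counterpart, 31.0 and 31.6 against 47.4 and 32.6.

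Of the G2/M genes, the stage at which Cdk1 acts, 13 were tested and 3 were higher, where 9.84% of all accessions were, with a median of 0.31 beside −0.03 over all accessions. Cdc25c, the phosphatase that activates Cdk1, rose from 357 and 342 to 690 and 696 (log2 difference 0.98, standard error 0.16, adjusted p = 0.00878, limma). Ccnb1 and Ccnb2, the B cyclins, rose by 0.56 each (standard errors 0.14 and 0.13, adjusted p = 0.0318 and 0.0275, limma). Cdc25c, Ccnb1 and Ccnb2 each lost the call when either H1-TKO library was left out (adjusted p = 0.0921 to 0.345, limma), and Ccnb1 and Ccnb2 also at a minimum mean of 1. Bub1b and Ccna2, with the highest means, stood at 0.31 and 0.35 and did not pass (adjusted p = 0.108 and 0.0651, limma).

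**Figure D4:**
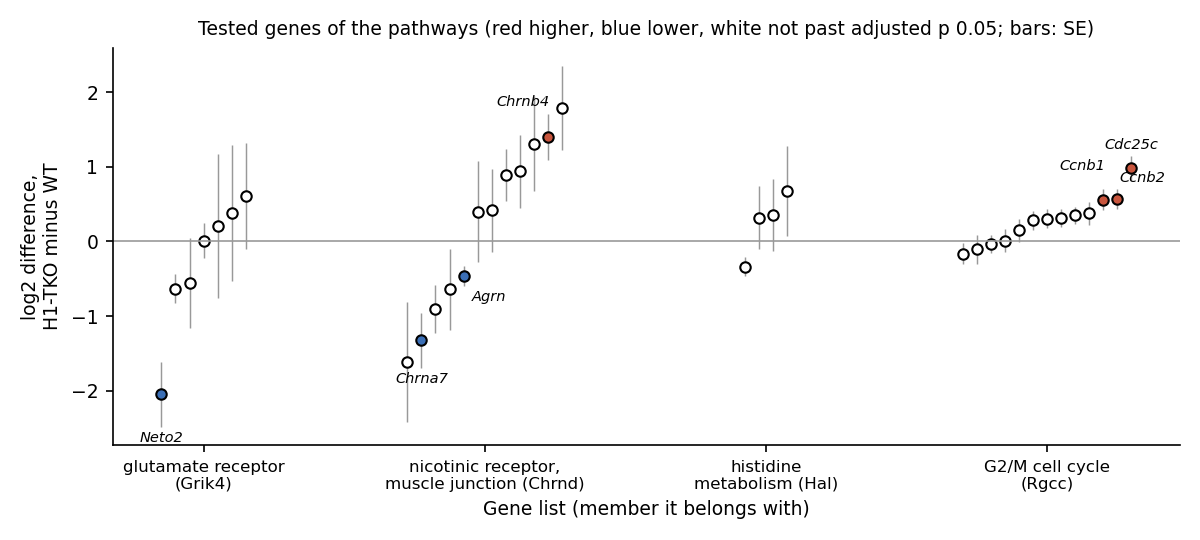
Log2 difference between H1-TKO and WT of the tested genes in the 4 pathway lists, each list ordered by its differences, with bars for the standard error. Red points (Chrnb4, Ccnb1, Ccnb2 and Cdc25c) were higher, blue points (Neto2, Chrna7 and Agrn) lower and white points not past an adjusted p of 0.05, and no point reaches the 4.20 of Chrnd.

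Markers of the tissues in which the 4 genes are best known were read beside them. Over 8 lists, 39 entries were tested and 15 called, 10 higher and 5 lower, next to 20.5% of all accessions called, 9.84% higher and 10.7% lower. The count was 9 (23.1%) without H1-TKO replicate 1 and 27 (69.2%) without WT replicate 2, against 5.43% and 44.5% of all accessions. Of 9 stem cell genes tested, 4 were higher and 1 lower, and the list summed to 30295 and 40798 normalized counts in WT and to 53186 and 53755 in H1-TKO, with Dppa5a and Zfp42 the highest in mean count. Skeletal muscle genes summed to 1241 and 1434 against 2576 and 2381, with Des higher (log2 difference 2.27, adjusted p = 0.00263, limma), Mylpf at 0.06 and Acta1 at 0 in all libraries, while Myod1 had 0.776 and 1.09 against 6.61 and 2.11. Also under the filter were Myog, at 0 and 1.09 against 11.02 and 8.43, and Ckm, at 1.55 and 2.18 against 11.02 and 7.37. Ttn (NM_011652) was too, at 1.55 and 0 against 28.6 and 3.16. Other muscle markers did not rise in this way: Myf6 and every Tnnt3 accession were at 0 in all libraries, and Myf5 and Tnnt1 at or near 0. Actn2 stood at 0.45 and did not pass (adjusted p = 0.230, limma). Most of the rise in the muscle sum was Des, at 331 and 214 against 1357 and 1220. Neuron genes summed to 4632 and 4665 against 4473 and 4790, where 1 was higher and 2 lower, with Stmn2 and Tubb3 highest. Hepatocyte genes summed to 104 and 274 against 347 and 443, with 1 of 2 higher, Trf and Hnf4a being highest, and Alb ran from 0 to 5.51. Epidermis genes summed to 3008 and 1300.2 against 1076 and 984, nearly all of it Sfn, and 0 of 3 were called with limma, with 2 at an unadjusted p under 0.05 and 1 called by DESeq2. Endothelium genes, with Vwf highest, had 1 of 6 lower, fibroblast genes, with Mmp2 and Fbln1 highest, 3 of 5 higher and 1 lower, and primitive endoderm genes, with Lamb1 highest, 0 of 5 with limma, edgeR or DESeq2 and 0 at an unadjusted p under 0.05. The lower endothelium gene, Sox18, reached the minimum mean only through WT, at 24.1 and 28.4 against 1.10 and 0 in H1-TKO. The part of other cell types in the levels of the 4 genes was not tested.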

How the data were processed

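Of 71 samples in the series, 4 RNA-seq libraries (2 per genotype) and 2 H3K27me3 peak lists (1 per genotype) were used. Paired-end reads were aligned by the authors with Subread on mm9 and, where unique, counted per RefSeq accession with featureCounts. Division by a DESeq2 size factor gave the deposited signal, called the normalized count here. Strand use in counting is not given in the sources used here. All values (100%) were whole multiples of 1 read within a tolerance of 0.001, which gave 10538507 and 8292007 reads in WT and 6951619 and 7346122 in H1-TKO. In WT replicate 2, accession NR_046233 took 11.8% of the total, against 1.98% to 2.08% in the others. Peaks were called with MACS by the authors after bowtie2 alignment of the ChIP-seq reads, and a deposited score equals −10 times log10 of p. The study describes the replicates as biologically independent.

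Of 34010 accessions, 33650 matched a symbol (RefSeq, names only) and 31393 a place in GENCODE M1. Accessions with a mean of at least 10 were tested with limma 3.58.1 (R 4.3.3) on log2(normalized count + 1), eBayes with trend, Benjamini-Hochberg adjustment over 11113 accessions and no block, which called 1094 higher and 1188 lower. On the recovered reads edgeR 4.0.16 called 1057 and 1106, and DESeq2 1.42.0 called 1130 and 1287. Tested on simulated data (H1-TKO against WT, dispersion 0.05), the limma step recovered 185 of 200 changes of log2 2 with 7 false calls (10972 genes) and 200 of 200 of log2 3 with 13 (10938 genes). The same dispersion served all genes and both genotypes, and smaller changes were not simulated. Peaks were joined to genes by an overlap of at least 1 bp. Tables and figures were made in Python 3.11.15 with pandas 2.3.3, numpy 2.4.6, scipy 1.17.1 and matplotlib 3.10.9. The 4 genes and the gene lists were chosen with earlier results of these data known. Beside the 4, the text names the accessions just outside their ranks, neighbours within 200 kb that were tested, the called and the 2 most abundant genes of each pathway list, the 1 or 2 most abundant of each cell type list, the 3 nearest profiles per gene and the knocked-out genes. Tex13b, the genes under the filter, the markers at or near 0, Actn2, Sox18, H1f0, H1f5, H1f10 and the muscle receptor partners were added as context. Alternatives were other pseudocounts, filters, scalings, tests, windows and peak scores, a replicate block and single libraries left out.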

Additional observations from a re-analysis of the deposited data

How the results depend on the processing

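With each library left out in turn, the log2 difference ran from 3.03 to 6.50 for Grik4, 4.50 to 4.94 for Rgcc, 3.61 to 4.98 for Hal and 3.05 to 5.34 for Chrnd. The called neighbours ran from 2 to 14, the pathway genes from 0 to 19, the cell type genes from 9 to 27 and all accessions from 585 to 5468, with limma's spread then drawn from 3 libraries and the lone library assumed to vary like the other group. A pseudocount of 5 gave 4.22 for Rgcc, 3.51 for Hal and 2.74 for Chrnd. A minimum mean of 1 gave 7 of 28 neighbours (25%), 3 of 57 pathway genes (5.26%) and 1467 of 16886 accessions (8.69%). A minimum of 50 left out Grik4 and Chrnd. Neighbours called numbered 6 of 11 within 100 kb, 14 of 29 within 500 kb and 7 of 15 without those of Chrnd, the last chosen after seeing the data. At a score of at least 100, 1 gene (Rgcc) had a WT peak and 2 (Rgcc and Chrnd) an H1-TKO peak, where 11.5% and 9.99% of all genes had one. With the replicate block the pathway genes called were 11 and all accessions 1521 higher and 1778 lower. Same-numbered samples did not deviate together (r = 0.01, 2 pairs), so the number is not taken as a pairing. With quantile normalization 1257 accessions were higher and 1079 lower. Size factors without the most abundant accession, also chosen after seeing the data, gave the same 11 neighbours in number. Among single neighbours, the sign turned for Tlcd5 (−0.18 to 0.35 with a library left out), Vwa8 (−0.27 to 0.39) and Kbtbd7 (0.0067 with quantile normalization). Over all single neighbours and alternatives, 222 values kept their direction and side of the threshold, 23 lost the call, 5 gained it and 5 changed sign. The WT replicates were at least 2-fold apart in 13.3% of the accessions tested and the H1-TKO replicates in 6.52%. The part of this unequal spread in the shifts was not tested. Depth limits the 4 genes to 5 to 18 reads each over both WT libraries, and their intervals cover counting error only.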
